A study of Mus musculus with 32 samples.

Results

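Vmn2r53, Vmn2r88, Vmn2r115 and Vmn2r116 are members of the V2r family of vomeronasal receptors with a known ligand or behavioral role. They were chosen by name from that knowledge, with earlier results of these data known. These 4 genes were followed among 49671 listed genes, 123 of which were V2r genes when pseudogenes were left out. All 4 passed the filter on low counts, as did 121 of the 123 V2r genes. RNA was sequenced from the vomeronasal epithelium of 32 mice aged P42 (42 days after birth), with 1 mouse per library. The mice came from inbred strains labelled C57/BL6 (B6), 129S6/SVEV (129), SJL/J (SJL) and SWR/J (SWR), with 4 males and 4 females of each strain. No group was labelled with a transgene or a treatment, and strain and sex were the only labelled differences between groups. Each inbred strain stands for 1 genome. Libraries held between 5106398 and 18640871 counted reads (median 11461344), and V2r genes took 0.576% to 1.08% of them. Each of the 4 receptors had at least 279 reads in every library.

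The labelled tissue was checked against its markers. Omp, the protein of mature sensory neurons, had between 14488.5 and 23292 normalized counts, and Gnao1 and Gng8, G protein subunits of vomeronasal neurons, had at least 1151 and 1701 in every library. The channel gene Trpc2 was at 0 in all libraries, while Xntrpc, the readthrough gene model that contains it, had between 670 and 1425. Foxj1, a ciliated cell factor, reached 606 in 129 male replicate 1 and 516 in B6 female replicate 1 against a median of 38.3. Cnga2, a channel of main olfactory neurons, reached 134 in B6 male replicate 3 and 36.2 in B6 male replicate 4 against a median of 2.15. Dnah5 and Tekt1 were highest in the same libraries as Foxj1, and Stoml3 and Gnal in the same libraries as Cnga2. Other listed markers did not follow: Ccdc39 of ciliated cells ran from 577 to 744 over all libraries. Adcy3 and Slc17a6, listed for main olfactory neurons, had their lowest strain means in B6 (587 and 2635). These 4 libraries thus stood apart in part of the markers of neighbouring tissue, and the results were also computed without them.

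The vomeronasal organ (VNO) detects pheromones and cues of other species. V2rs are G protein coupled receptors with a large extracellular ligand-binding domain, expressed by the neurons of the basal zone of the epithelium, which signal through Gαo and the channel Trpc2. A basal neuron typically expresses 1 V2r of families A, B or D together with a broadly expressed co-receptor of family C. Vmn2r116, also called V2Rp5, is the receptor of ESP1, a peptide of male tears that raises sexual receptivity in females. Vmn2r115, also called V2Rp4, is the receptor of ESP22, a tear peptide of juveniles that suppresses mating. Vmn2r88 responds to haemoglobin, and Vmn2r53 has been linked to aggression between males.

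Vmn2r115 and Vmn2r116 are neighbours on the plus strand of chromosome 17 (GRCm38 chr17:23343741-23362538 and chr17:23384604-23404422). Vmn2r88 lies on chromosome 14 (chr14:51410820-51420721, plus strand) and Vmn2r53 on chromosome 7 (chr7:12562851-12608788, minus strand). Each has 6 coding exons, with a coding length of 2571 to 2637 bases. The coding sequences of Vmn2r115 and Vmn2r116 were 93.2% identical, and exon 2 was the least alike at 85.6%. The 120 bases of exon 2 (GENCODE M21 annotation) in which the receptors of the juvenile and the male tear peptide differ most are shown because reads there tell the pair apart, with the 22 differing bases in capitals (chr17:23345193-23345312 and chr17:23386049-23386168, plus strand).
Vmn2r115 exon 2: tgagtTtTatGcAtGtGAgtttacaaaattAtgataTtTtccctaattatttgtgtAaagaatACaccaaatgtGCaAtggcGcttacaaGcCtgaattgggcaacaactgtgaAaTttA
Vmn2r116 exon 2: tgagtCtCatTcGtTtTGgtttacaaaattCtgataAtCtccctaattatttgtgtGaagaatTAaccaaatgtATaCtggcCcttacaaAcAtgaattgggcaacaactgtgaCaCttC

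Exon 6, which encodes the membrane-spanning part, was the most alike at 95.0%. Its longest identical run, 79 bases, is shown because it marks the limit of telling the pair apart and is shorter than 1 read (chr17:23359742-23359820 and chr17:23401478-23401556, plus strand).
Vmn2r115 and Vmn2r116 exon 6: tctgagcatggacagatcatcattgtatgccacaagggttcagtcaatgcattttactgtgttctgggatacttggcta

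The fifth coding exon had the same length of 124 bases in all 4 receptors and shows how far apart the others stand. Of its positions, 54 held the same base in all 4 and 70 did not, and capitals mark a base carried by that receptor alone (chr7:12584703-12584826, minus strand; chr14:51416705-51416828, chr17:23356960-23357083 and chr17:23397637-23397760, plus strand).
Vmn2r53 exon 5: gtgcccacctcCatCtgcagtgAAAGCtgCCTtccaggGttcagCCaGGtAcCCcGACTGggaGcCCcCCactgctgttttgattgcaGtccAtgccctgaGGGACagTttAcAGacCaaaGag
Vmn2r88 exon 5: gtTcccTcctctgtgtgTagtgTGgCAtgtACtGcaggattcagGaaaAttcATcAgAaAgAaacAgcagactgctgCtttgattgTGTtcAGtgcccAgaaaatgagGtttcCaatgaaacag
Vmn2r115 exon 5: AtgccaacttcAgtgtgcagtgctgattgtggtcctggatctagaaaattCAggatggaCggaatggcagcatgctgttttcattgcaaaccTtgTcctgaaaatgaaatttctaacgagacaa
Vmn2r116 exon 5: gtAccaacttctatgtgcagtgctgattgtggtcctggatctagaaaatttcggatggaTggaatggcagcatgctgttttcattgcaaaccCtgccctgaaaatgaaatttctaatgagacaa

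Over the whole coding sequence, Vmn2r88 was 64.7% identical to Vmn2r115 and Vmn2r53 was 52.7% identical to it. The closest relative of Vmn2r53 was its neighbour Vmn2r54 (93.9%), and that of Vmn2r88 was Vmn2r121 on the X chromosome (93.7%). Vmn2r115 was closest to Vmn2r114 (95.9%) and Vmn2r116 to Vmn2r111 (93.4%), both on chromosome 17. Of all stretches of the coding sequence with the length of 1 read, 5.13% in Vmn2r53, 1.10% in Vmn2r88, 3.51% in Vmn2r115 and 0.940% in Vmn2r116 also occurred in a transcript of another gene. None of these stretches was shared by Vmn2r115 and Vmn2r116, and those of Vmn2r115 were shared with Vmn2r114 and Vmn2r117. Because only uniquely mapped reads were counted, the level of each receptor can leave out reads from these stretches. Reads were paired, and a pair with 1 read in such a stretch can still map uniquely by the other read. Reads could also be split between these near-identical genes, and neither effect was tested. The reads of all strains were aligned to the B6 reference genome, and the effect of strain variants on the counts was not tested.

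Vmn2r116, the ESP1 receptor, was lowest in 129 and highest in SWR. Its normalized counts (reads divided by the size factor of the library) had a lowest, median and highest value of 423, 523 and 614 in 129. They were 737, 855 and 975 in SJL, 769, 900 and 930 in B6, and 931, 1105 and 1280 in SWR. No 129 mouse reached the lowest mouse of any other strain, and all SWR mice were above all B6 mice. The mean was 528 ± 67.7 (SD, n = 8) in 129, 854 ± 81.1 in SJL, 876 ± 66.8 in B6 and 1104 ± 114 in SWR.

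Genes were called differentially expressed (DE) between strains at a fold change (FC) greater than 2, or log2 fold change (LFC) greater than 1, with a false discovery rate (FDR) under 0.05 over the 18382 genes tested in edgeR. Vmn2r116 was DE between SWR and 129 (LFC 1.05, SE 0.07, FC 2.08, FDR 3.47e-14), with higher levels in 8 of 8 SWR mice. That was the only DE call among 24 comparisons of the 4 receptors over 6 strain pairs, where 7.96% of all gene and pair combinations and 33.6% of those of V2r genes were called. In the SWR and 129 comparison itself, 7.73% of all genes and 40.5% of V2r genes were called. Against 129, 11.1% of all genes were called in B6 and 8.38% in SJL, and the share was 7.99% for SJL against B6, 8.05% for SWR against B6 and 4.5% for SWR against SJL. When libraries were scaled to the sum of V2r reads, the LFC between SWR and 129 was 0.72 and the call was lost. The paper did not find the strain difference of Vmn2r116 significant at its own limit of FC 2. It also reported many sequence variants of Vmn2r116 in 129 mice, and their effect on these counts was not tested. Passing the FDR limit alone was common, with 52.8%, 38.3% and 41.8% of all genes for B6, SJL and SWR against 129, 45.7% and 40.9% for SJL and SWR against B6, and 32.5% for SWR against SJL. Vmn2r116 was also higher than in 129 in B6 (LFC 0.73, SE 0.07, FDR 3.69e-10) and SJL (LFC 0.69, SE 0.07, FDR 1.57e-09), past the FDR limit but under FC 2. SWR exceeded B6 by 0.33 (SE 0.07, FDR 0.000343) and SJL by 0.37 (SE 0.07, FDR 9.60e-05) on the log2 scale. The excess over B6 was 0.064 (FDR 0.520) when libraries were scaled to the vomeronasal neuron markers, of which 7 of 7 tested were themselves higher in SWR than in B6 past the FDR limit (median LFC 0.27). SJL and B6, next to each other in the order of levels, did not differ beyond their spread (LFC -0.04, SE 0.07, FDR 0.664), but SJL was lower on the marker scale (LFC -0.24, FDR 0.0196). In whole tissue, fewer neurons with a receptor and less RNA per neuron cannot be told apart.

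Vmn2r115, the ESP22 receptor, followed another order, with B6 lowest, then SJL and 129, and SWR highest. Its normalized counts had a lowest, median and highest value of 612, 803 and 875 in B6, and of 858, 992 and 1253 in SJL. They were 973, 1296 and 1524 in 129, and 1379, 1546 and 1829 in SWR. All 129 mice were above all B6 mice and all SWR mice above all B6 and SJL mice, while 129 and SWR overlapped. The means were 779 ± 88.0, 1011 ± 139, 1263 ± 189 and 1559 ± 159 (SD, n = 8) in that order of strains. All 6 strain pairs passed the FDR limit, and each neighbour in the order differed from the next: SJL from B6 (LFC 0.37, SE 0.09, FDR 0.000767), SJL from 129 (LFC -0.33, SE 0.09, FDR 0.00213) and SWR from 129 (LFC 0.29, SE 0.08, FDR 0.00613), the last of which turned to -0.040 when scaled to the sum of V2r reads. The difference of SJL from B6 did not pass on the marker scale (LFC 0.17, FDR 0.128). The widest difference was that of SWR over B6 (LFC 0.99, SE 0.09, FC 1.98, FDR 1.53e-11), just under the limit of FC 2. It crossed that limit when any of 10 single libraries was left out and stayed under it for the other 22 (LFC 0.95 to 1.01 over all 32). B6 was lower than 129 (LFC -0.70, SE 0.09, FDR 3.15e-08), the direction opposite to that of Vmn2r116 in the same mice.

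Vmn2r88, the haemoglobin receptor, had the most reads of the 4 and differed least. Its normalized counts had a lowest, median and highest value of 4951, 5656 and 6065 in B6, and of 5117, 5767 and 6891 in SWR. They were 4483, 5996 and 6748 in SJL, and 4640, 7017 and 7654 in 129. The ranges of all 4 strains overlapped, and the 129 range was the widest. The means were 5627 ± 394 in B6, 5858 ± 578 in SWR, 5918 ± 721 in SJL and 6589 ± 1193 in 129 (SD, n = 8). No neighbours in this order differed (FDR 0.689, 0.892 and 0.175), and of the 6 pairs only B6 against 129 passed the FDR limit (LFC -0.23, SE 0.09, FC 1.17, FDR 0.0332). That FDR ranged from 0.00399 to 0.0796 when single libraries were left out, and the direction turned (LFC 0.055) when libraries were scaled to the vomeronasal neuron markers. The 2 lowest 129 mice were males 1 and 3, at 4897 and 4640. These libraries also had the lowest share of reads on V2r genes (0.576% and 0.605%) and a Foxj1 of 606 and 141 against the median of 38.3, and their part in the wide 129 range was not tested.

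Vmn2r53 was lowest in SJL and highest in SWR. Its normalized counts had a lowest, median and highest value of 356, 428 and 509 in SJL, and of 450, 517 and 637 in 129. They were 420, 692 and 838 in B6, and 712, 833 and 936 in SWR. All SWR mice were above all SJL and 129 mice, while the B6 range overlapped with each of the other strains. The means were 441 ± 51.1, 522 ± 72.7, 651 ± 131 and 835 ± 83.1 (SD, n = 8) in that order. SWR exceeded SJL by an LFC of 0.91 (SE 0.10, FC 1.88, FDR 6.04e-09), 129 by 0.67 (SE 0.10, FDR 1.55e-06) and B6 by 0.35 (SE 0.10, FDR 0.00508). B6 was above SJL (LFC of SJL against B6 -0.56, SE 0.10, FDR 3.03e-05) and above 129 (LFC 0.32, SE 0.10, FDR 0.00960), though the last turned to -0.042 when scaled to the sum of V2r reads. On the scale of the neuron markers the excess of SWR over B6 was 0.088 (FDR 0.490). SJL and 129 did not pass the limit (LFC -0.25, SE 0.10, FDR 0.0553). In all, 17 of the 24 receptor and pair combinations passed the FDR limit alone, where 42% of all combinations and 75.6% of those of V2r genes did. The number was 14 on the marker scale, 20 on the scale of the sum of V2r reads and 16 to 20 with single libraries left out.

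**Figure D1:**
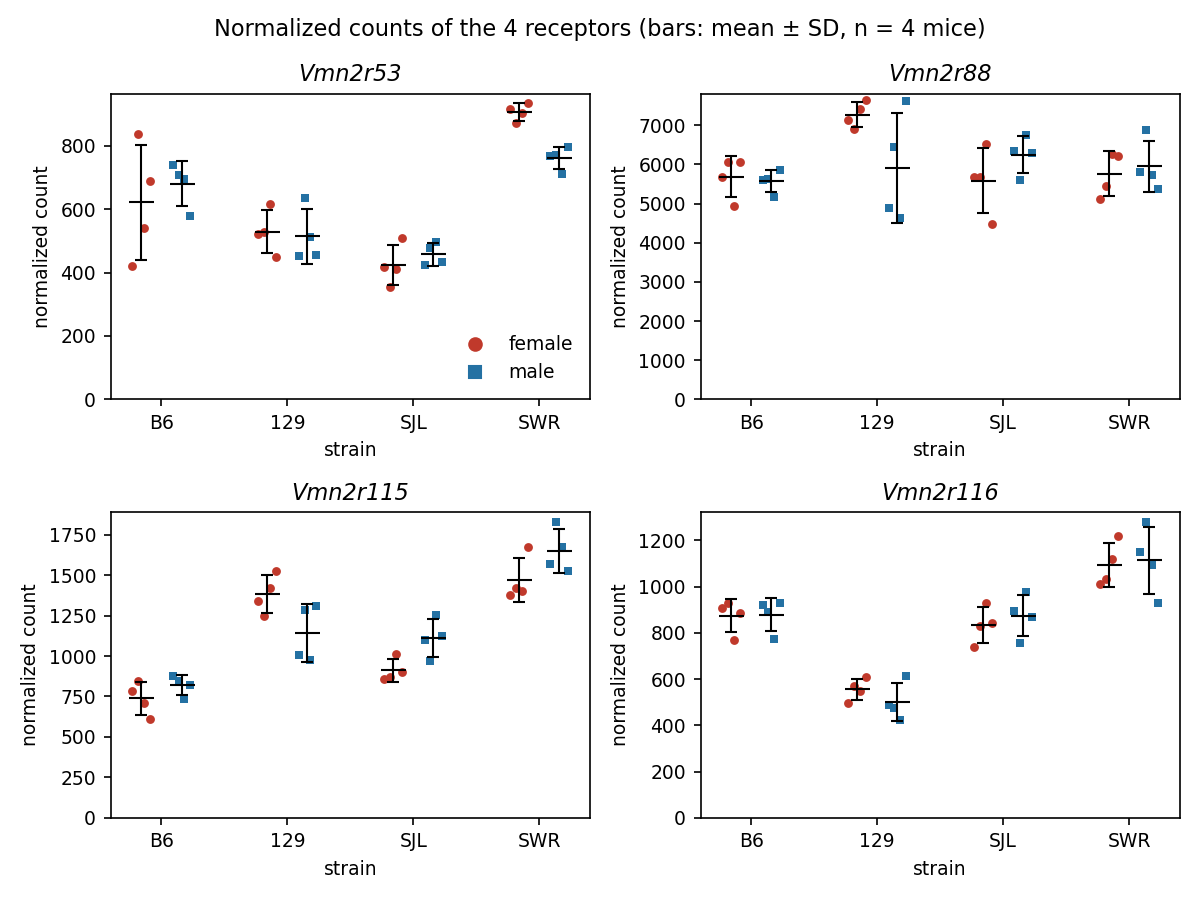
Normalized counts (y axis) of each receptor in every mouse by strain (x axis), with 4 females and 4 males per strain and bars at the mean ± SD of each sex. The 129 mice lie lowest for Vmn2r116 (423 to 614), B6 lowest for Vmn2r115 (612 to 875), SJL lowest for Vmn2r53 (356 to 509), and the strains overlap for Vmn2r88.

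The receptors of the juvenile and the male tear peptide were then compared within each library, where the ratio of their reads does not depend on how libraries were scaled. The ratio of Vmn2r115 to Vmn2r116 reads was 0.890 ± 0.0870 in B6 (range 0.691 to 0.951), so every B6 mouse had fewer Vmn2r115 than Vmn2r116 reads. It was 1.18 ± 0.101 in SJL (1.05 to 1.29), 1.42 ± 0.118 in SWR (1.25 to 1.63) and 2.40 ± 0.256 in 129 (2.06 to 2.70; SD, n = 8 each). All mice of the other 3 strains had more Vmn2r115 than Vmn2r116 reads, and only the SJL and SWR ranges overlapped. The annotated exons hold 14134 bases in Vmn2r115 and 7584 in Vmn2r116, so more reads do not mean a higher level per length. Differences of the ratio between strains do not depend on these lengths. The log2 ratio differed between all 6 strain pairs in exact two-sided permutation tests of 8 against 8 mice, adjusted over the 6. The p was 0.000155 for 5 pairs (adjusted p = 0.000186), the smallest that the 12870 arrangements allow, and 0.000622 for SWR against SJL. The gap was widest between 129 and B6 (log2 difference of B6 to 129 -1.43, or 2.69-fold) and narrowest between SWR and SJL (0.26). SJL and SWR lay below 129 by 1.02 and 0.76 (log2 differences -1.02 and -0.76), and above B6 by 0.41 and 0.67. All 6 differences stayed past 0.05 among males alone and among females alone, without any single library, and without the 4 libraries that stood apart. How often the ratio of other V2r genes differs between strains was not computed.

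The sum of the pair was highest in SWR. The normalized counts of Vmn2r115 and Vmn2r116 together were 2663 ± 253 in SWR, and lower at 1866 ± 209 in SJL, 1791 ± 242 in 129 and 1655 ± 135 in B6 (SD, n = 8). The SWR range (2388 to 3109) lay above those of B6 (1482 to 1796), 129 (1396 to 2131) and SJL (1595 to 2228), which overlapped with each other. The sums were not tested.

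**Figure D2:**
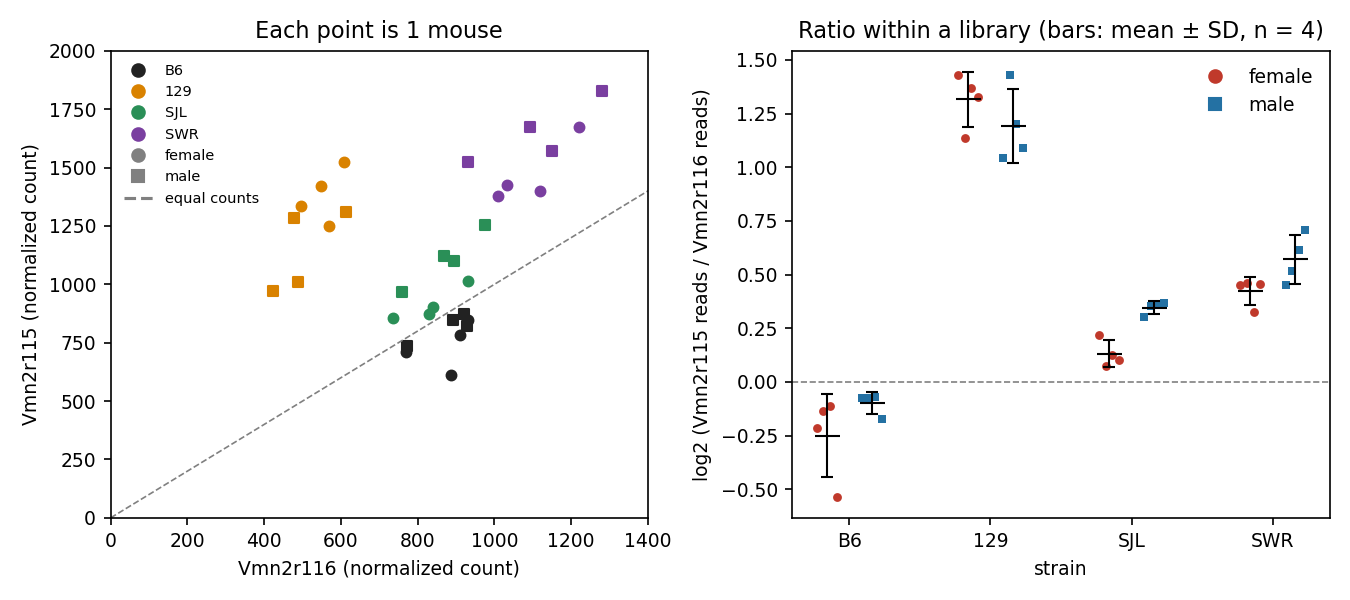
Left, normalized count of Vmn2r115 (y axis) against Vmn2r116 (x axis) in each mouse, colored by strain, with the dashed line at equal counts; right, log2 ratio of their reads (y axis) by strain and sex, with bars at the mean ± SD. B6 mice lie under the line of equal counts (ratios 0.691 to 0.951) and 129 mice farthest above it (2.06 to 2.70).

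Each receptor was also set against its own family, as a percent of the reads on all V2r genes. This share asks how the family's reads are divided, whatever the amount of V2r RNA in a library, which took 0.747 ± 0.101% of all reads in 129 and 0.994 ± 0.0640% in B6. Vmn2r88 alone took 7.51 ± 0.486% of V2r reads in 129, 5.80 ± 0.356% in SJL, 5.29 ± 0.176% in SWR and 5.09 ± 0.133% in B6 (SD, n = 8). Every 129 mouse (6.62% to 8.01%) was above every mouse of the other strains, whose highest value was 6.16%. On this scale Vmn2r88 differed between all 6 pairs (exact permutation test, adjusted p from 0.000287 to 0.0215 over 24 comparisons), but not between SWR and B6 without the 4 libraries that stood apart (0.20 percentage points, adjusted p = 0.0622). Vmn2r115 took 1.45 ± 0.0616% in 129 and 1.41 ± 0.0911% in SWR, which did not pass (adjusted p = 0.409, but 0.0315 with family C left out), against 0.993 ± 0.105% in SJL and 0.706 ± 0.0798% in B6. Vmn2r116 took 0.998 ± 0.0431% in SWR, 0.840 ± 0.0638% in SJL, 0.792 ± 0.0331% in B6 and 0.608 ± 0.0582% in 129, where only the difference between SJL and B6 did not pass (adjusted p = 0.0844). That difference passed without SJL female replicate 1 (adjusted p = 0.00824, from 0.00824 to 0.169 with single libraries left out), and with pseudogenes counted in the family (0.0444) or family C left out of it (0.00207). Vmn2r53 took 0.759 ± 0.0956% in SWR, 0.606 ± 0.101% in 129, 0.588 ± 0.105% in B6 and 0.437 ± 0.0762% in SJL, where only 129 and B6 did not differ (adjusted p = 0.731). The order of strains for Vmn2r116, with 129 lowest and SWR highest, was that of the normalized counts apart from SJL and B6, and Vmn2r115 in B6 remained lowest. How many other V2r genes would pass this test of shares was not computed. In the edgeR tests of counts, 75.6% of V2r gene and pair combinations passed the FDR limit alone.

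Levels of different receptors were next compared per kilobase of annotated exon, unlike the ratio above, which used reads without regard to length. Vmn2r88 had 1305 ± 180 normalized counts per kilobase (SD, n = 32), the highest of the 122 V2r genes with an annotated length in each of the 4 strains, against a V2r median of 59.9. Vmn2r116 had between 69.6 (129) and 146 (SWR) by strain, at ranks 32 to 48, and Vmn2r115 between 55.1 (B6) and 110.3 (SWR), at ranks 39 to 67. Vmn2r116 was above Vmn2r115 in B6, SJL and SWR, and below it in 129 (69.6 ± 8.93 against 89.3 ± 13.4). Vmn2r53 was lowest of the 4 in each strain (19.9 to 37.7, ranks 76 to 85). The ranks depend on the length used, because the annotated exons of Vmn2r53 and Vmn2r115 hold long untranslated parts (22143 and 14134 bases of exon in all). Reads were counted on an Ensembl annotation, whose untranslated parts may differ from the GENCODE ones used for these lengths. Per kilobase of coding sequence, an alternative chosen after the data were seen, Vmn2r88 ranked 2 of 121 in each strain, Vmn2r115 20 to 44, Vmn2r116 33 to 48 and Vmn2r53 43 to 60. Here Vmn2r115 was above Vmn2r116 in 129, SJL and SWR, and below it in B6 (303 ± 34.2 against 341 ± 26.0 per kilobase). The spread of single mice around the fitted strain and sex means, as the biological coefficient of variation, was 12.02% for Vmn2r88, 9.76% for Vmn2r116, 9.73% for Vmn2r115 and 13.1% for Vmn2r53.

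The strain differences of the 4 receptors lay below the V2r median. The largest absolute LFC over the 6 pairs was 0.23 for Vmn2r88, the smallest of the 121 V2r genes tested, 0.91 for Vmn2r53 (rank 37 from the smallest), 0.99 for Vmn2r115 (rank 42) and 1.05 for Vmn2r116 (rank 45). The V2r median was 1.52 and the highest value 9.44, while the median over all tested genes was 0.44. At least 1 strain pair was called for 65.3% of V2r genes and 19.8% of all genes, and for 1 of the 4 receptors. The first rank of Vmn2r88 depends on the library scale: scaled to the sum of V2r reads, its largest LFC was 0.56 and its rank 14, while its rank was 1 to 3 under the other alternatives.

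**Figure D3:**
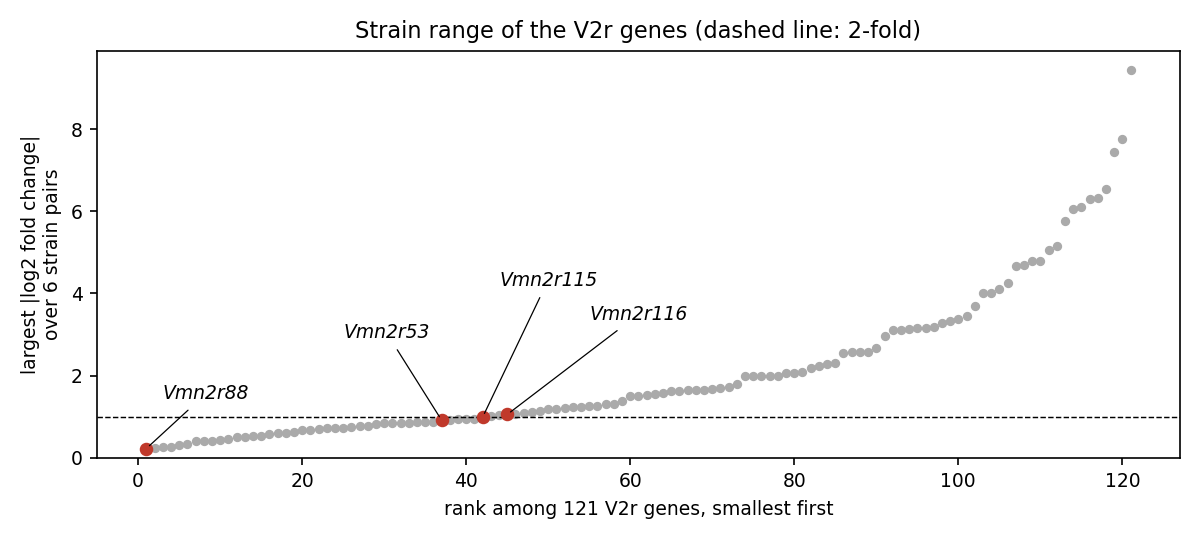
Largest absolute LFC over the 6 strain pairs (y axis) of each of 121 V2r genes, ranked from the smallest (x axis), with the 4 receptors marked and the dashed line at FC 2. Vmn2r88 has the smallest value (0.23) and the other 3 lie at ranks 37 to 45, around FC 2.

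The closest relatives of each receptor and the nearest V2r genes on its chromosome were then described. Vmn2r54, next to Vmn2r53 and its closest relative, had 658 ± 59.9 normalized counts in B6 and 708 ± 107 in SWR, but 40.0 ± 9.70 in 129 and 56.7 ± 12.3 in SJL (LFC of B6 against 129 4.02, SE 0.12, FDR 1.01e-24). On its other side, Vmn2r-ps53, annotated as a pseudogene, had the opposite pattern with 607 ± 51.7 in 129 and 755 ± 75.8 in SJL, but 39.5 ± 11.1 in B6 and 49.3 ± 10.08 in SWR. Their largest absolute LFC over the pairs was 4.11 and 4.22, while that of Vmn2r53, which lies between them, was 0.91. Vmn2r52 and Vmn2r55, the next V2r genes farther on either side, had 667, 63.1, 147 and 301 for Vmn2r52 and 345, 310, 641 and 675 for Vmn2r55 (means in B6, 129, SJL and SWR). Vmn2r56, the other close relative, had 182, 203, 366 and 377 in the same order.

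Next to the tear peptide receptors, Vmn2r114 had 430 ± 34.8 normalized counts in SWR, 302 ± 39.6 in SJL and 393 ± 54.4 in B6, but 32.6 ± 7.75 in 129 (LFC of B6 against 129 3.57, SE 0.11, FDR 5.60e-24). Vmn2r115, its relative of 95.9% identity, was in contrast higher in 129 than in B6 and SJL. Vmn2r117 (means 364, 266, 419 and 542 in B6, 129, SJL and SWR) and Vmn2r111 (909, 536, 903 and 979), the closest relatives of Vmn2r116, were lowest in 129 as Vmn2r116 was. Beside Vmn2r88, Vmn2r89 had 7223 ± 690 in B6 and then 4655 ± 698 in SJL, 4603 ± 807 in 129 and 3949 ± 436 in SWR, and it was under the limit of FC 2 in every pair. Of the close relatives of Vmn2r88 on chromosome 10, Vmn2r87 had 54.99 ± 7.97 in SJL and 53.5 ± 7.44 in SWR, but 23.3 ± 6.64 in B6 and 18.3 ± 7.24 in 129, and it was called in 4 pairs (LFC of SJL against 129 1.59, SE 0.19, FC 3.01, FDR 1.36e-08). Vmn2r86 had between 388 ± 32.9 (SWR) and 460 ± 57.7 (129) and was called in none of the 6. The pseudogenes Vmn2r-ps134 and Vmn2r-ps111, also next to receptors, were near 0 and not tested, and Vmn2r-ps133 was low (15.9 to 32.5 by strain).

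**Figure D4:**
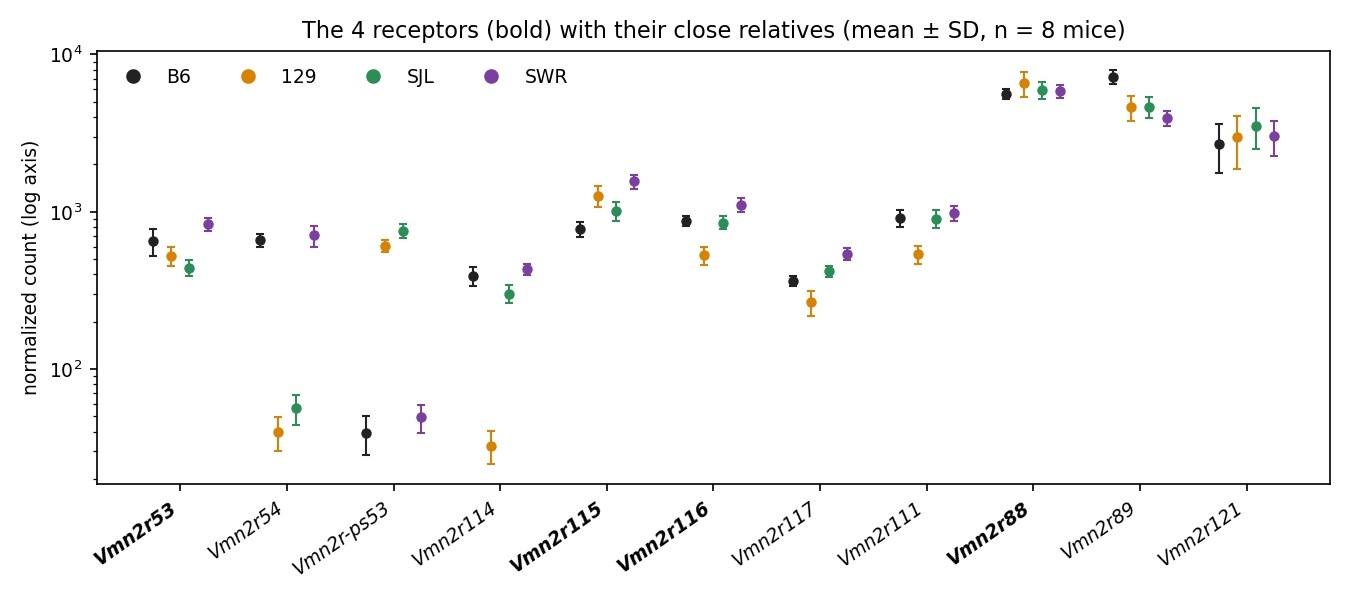
Mean normalized count per strain (y axis, log scale) of the 4 receptors (bold names) and their close relatives and neighbours, colored by strain. Vmn2r54, Vmn2r-ps53 and Vmn2r114 differ by up to FC 17.2, 18.6 and 12.9 between strains, while Vmn2r53, Vmn2r115 and Vmn2r116 differ by up to FC 1.88, 1.98 and 2.08.

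The genes whose pattern over the 32 mice was most like each receptor were named by Pearson's r of log2 normalized counts, as a description that also carries the strain means. For Vmn2r116 these were Osbpl9, a lipid-binding protein (r = 0.956), the receptor Vmn2r78 (0.941) and Cenpc1, a centromere protein (0.937), and the next V2r genes were Vmn2r13 (0.934) and Vmn2r111 (0.924). For Vmn2r115 they were Sult1e1, an estrogen sulfotransferase (0.915), the pseudogene Vmn1r-ps103 (0.908) and Cyp2j9, a cytochrome P450 (0.903), with Vmn2r29 (0.891), Vmn2r25 (0.840) and Vmn2r73 (0.822) as the V2r genes. Another tested entry also carries the symbol Vmn2r29, and the value given is that of the entry more like Vmn2r115. Vmn2r53 was most like Alms1, a centrosomal protein (0.919), Baz2b (0.913) and Anks1b (0.910), and among V2r genes Vmn2r60 (0.861), Vmn2r18 (0.804) and Vmn2r54 (0.755). Vmn2r88 was most like Lrrc40 (0.842), Vbp1 (0.797) and Rbm11 (0.765), with 0.815, 0.930 and 0.708 after strain and sex means were taken out, and with the V2r genes Vmn2r93 (0.745), Vmn2r86 (0.732) and Vmn2r112 (0.696). No gene was shared between the 4 lists.

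Since ESP1 is a male peptide with different effects in the sexes, the receptors were compared between males and females. None of the 4 was DE between the sexes over all strains (LFC from -0.03 to 0.08, smallest FDR 0.769), where 0.0381% of all genes passed FC 2 and FDR 0.01, and none had an unadjusted p under 0.05, against 1648 genes (8.97%). The DESeq2 test also called none. Females had a Vmn2r116 mean of 840 ± 209 and males 842 ± 244 (SD over 16 mice of each sex), with an LFC of -0.01 (SE 0.05). Within strains, none of 16 tests was called and 3 had an unadjusted p under 0.05, with LFC from -0.30 to 0.29 and a smallest FDR of 0.482, and DESeq2 called none either. The share of all genes at that unadjusted p was 6.64% in SJL, 7.87% in 129, 8.25% in SWR and 9.14% in B6. Called genes made up 0.0544% of all tested in B6 and in SJL, 0.0381% in 129 and 0.0816% in SWR.

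Vmn2r115 in SJL was 858, 872, 1015 and 903 in females and 1101, 969, 1253 and 1121 in males (LFC 0.29, SE 0.10, unadjusted p = 0.00708, FDR 0.482 in edgeR). In 129 it was 1337, 1249, 1419 and 1524 in females and 1008, 1285, 973 and 1307 in males (LFC -0.27, SE 0.10, unadjusted p = 0.00969, FDR 0.497 in edgeR). The mean of males was thus above that of females in SJL and below it in 129, and the sexes overlapped in both strains. The interaction of sex and strain did not pass for Vmn2r115 (edgeR unadjusted p = 0.00233, FDR 0.299), where 0.0163% of genes did, but it passed when no filter on low counts was used (FDR 0.0170). Vmn2r88 in 129 was 7125, 6908, 7406 and 7654 in females and 4897, 6449, 4640 and 7632 in males (LFC -0.30, SE 0.12, FDR 0.529 in edgeR), and the low males were again replicates 1 and 3. Vmn2r53 in SWR was 917, 871, 905 and 936 in females and 768, 771, 712 and 795 in males, which did not overlap (LFC -0.26, SE 0.13, unadjusted p = 0.0605, FDR 0.630 in edgeR). In every other combination of receptor and strain the sexes overlapped. The share of all genes whose sexes do not overlap was not computed. In contrast, Vmn2r121, the X-linked closest relative of Vmn2r88, was at 2210 ± 414 in males (1585 to 2794) and at 3889 ± 480 in females (2885 to 4828), without overlap (SD over 16 mice of each sex). Its male against female LFC was -0.82 (SE 0.06, FDR 8.88e-12), under the limit of FC 2. An FDR of 0.01 alone was passed by 1.65% of V2r genes, Vmn2r121 among them, and by 0.141% of all genes.

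The receptors were next compared over single mice, after the mean of each strain and sex was taken from log2 normalized counts. Mice with more Vmn2r88 also had more Vmn2r116 (Pearson's r = 0.74, Spearman's rho = 0.71, n = 32, permutation test within groups, adjusted p = 0.000420 and 0.000210 over 6 pairs). The same held for Vmn2r115 and Vmn2r116 (r = 0.71, rho = 0.71, adjusted p = 0.000450 and 0.000210) and for Vmn2r88 and Vmn2r115 (r = 0.67, rho = 0.66, adjusted p = 0.00298 and 0.00382). Without the 2 mice farthest from the median, r was 0.63, 0.75 and 0.59. Vmn2r53 did not vary with the others (r = -0.0038 with Vmn2r88, 0.08 with Vmn2r115 and -0.08 with Vmn2r116, adjusted p = 0.987, 0.925 and 0.925). The total of V2r reads moves with these values, and on the scale of V2r share r was -0.03 for Vmn2r88 and Vmn2r116, -0.22 for Vmn2r88 and Vmn2r115, and 0.39 for Vmn2r115 and Vmn2r116 (adjusted p = 0.937, 0.333 and 0.0460). On that scale Vmn2r53 and Vmn2r88 had r = -0.55 (rho = -0.42, adjusted p = 0.0460 and 0.124). The covariation of Vmn2r88 with the tear peptide receptors was thus seen in normalized counts and not in V2r shares.

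**Figure D5:**
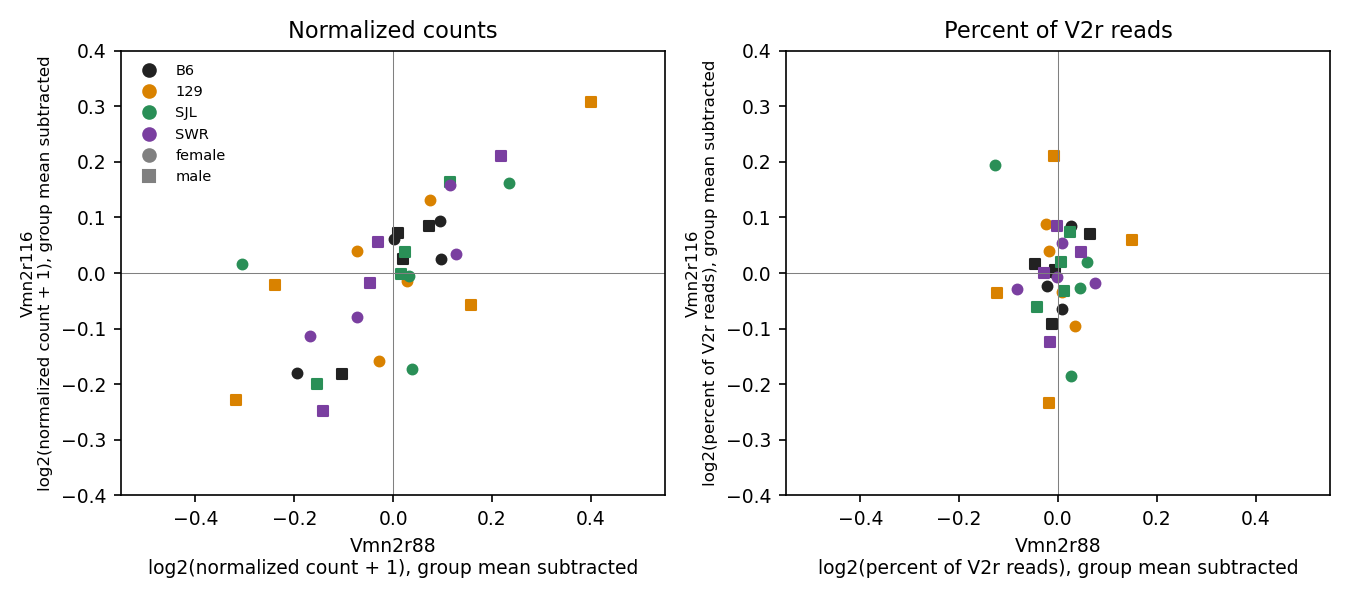
Deviation of each mouse from the mean of its strain and sex, for Vmn2r88 (x axis) and Vmn2r116 (y axis), in log2 normalized counts (left) and in log2 share of V2r reads (right), colored by strain. The points rise together on the left (r = 0.74) and not on the right (r = -0.03).

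Genes of the V2r pathway were described from a list chosen by role, beside all tested genes, of which 19.8% were called in at least 1 pair and 80.1% passed the FDR limit alone in at least 1. Of the G protein subunits Gnao1, Gng8 and Gnb1, 0 of 3 were called and 3 of 3 passed the FDR limit in some pair, with Gnao1 at 1420 in B6 and 1900 in 129. Of 5 channel and effector genes tested, 1 was called and 4 passed the FDR limit. The called gene was Plcb2, a phospholipase C, with means of 92.0 in 129, 141 in SJL, 185 in SWR and 190 in B6. Among chaperones, Calr, Calr4 and Canx, 0 of 3 were called and 2 passed, and among Tfap2e, Bcl11b and Robo2, factors and a guidance receptor of basal neurons, 0 of 3 were called and 3 passed.

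All 7 family C co-receptors, Vmn2r1 to Vmn2r7, passed the FDR limit in some pair and 1 was called, namely Vmn2r5 with means of 922 in SJL, 710 in 129, 487 in SWR and 217 in B6 (LFC of SJL against B6 2.09, SE 0.08, FDR 9.04e-21). Of the H2-Mv genes, MHC class Ib molecules of basal neurons, and their light chain B2m, 6 of 10 were called, against 19.8% of all genes, and 10 of 10 passed, against 80.1%. H2-M10.4, for example, had 1595 in B6 and 1759 in SWR but 682 in 129 and 553 in SJL. None of the 14 listed Esp genes, which encode the tear peptides, passed the filter, and their highest count in a library was 8, with 3 for Esp1. Haemoglobin chains were detected, with 33 to 375 reads of Hbb-bs per library. Of these genes 4 were tested and 3 called, and Hba-a2 was at 27.2 in B6 and 21.5 in 129, but at 0.11 in SWR and 0 in SJL. Hba-a2 has a near-identical copy in Hba-a1, so its reads are uncertain.

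Cell type markers also differed between strains, and their part in the receptor differences was not tested. Of the vomeronasal neuron markers, 0 of 7 tested were called and 7 passed the FDR limit in some pair, where 80.1% of all genes did. Past that limit, 5 of the 7 were lower in B6 than in 129 (median LFC -0.42) and 7 of the 7 higher in SWR than in B6 (median LFC 0.27). Of the immature neuron markers 0 of 4 were called and 4 passed. Against 19.8% of all genes called in some pair, 2 of 4 main olfactory markers were called, in red blood cells 3 of 5, in B lymphocytes 1 of 1, in macrophages 3 of 4, in ciliated cells 3 of 4, in cartilage and bone 2 of 4 and in skeletal muscle 0 of 1. The summed ciliated markers ranged widest in 129 (731 to 4772), followed by B6 (877 to 3103), SJL (677 to 1280) and SWR (812 to 1036). Without the 4 libraries that stood apart, the Vmn2r116 difference between SWR and 129 remained the only DE call and 19 of 24 combinations passed the FDR limit alone.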

How the data were processed

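RNA of the VNO epithelium of 32 mice was sequenced after ribosomal depletion as stranded paired-end reads. The authors trimmed reads with Trim Galore, aligned them to GRCm38 (mm10) with STAR, and deposited raw counts of uniquely mapped, reverse-strand reads per gene. They also deposited these counts divided by DESeq2 size factors, a depth-normalized signal here called normalized count. Strand was used in counting, so antisense genes were separated. Groups were taken from the labels.

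Counts were tested with edgeR 4.0.16 (R 4.3.3) by quasi-likelihood F tests with TMM scaling after filterByExpr, which kept 18382 genes, with strain and sex as terms for strain pairs and sex over all strains. Sex within strains and the interaction used the 8 group means. The Benjamini-Hochberg FDR was taken over all tested genes, and the SE was derived from LFC and F. Ratios and shares were compared by exact two-sided permutation tests, and correlations by 100000 shuffles within strain and sex with a pseudocount of 1. Exon lengths and sequences came from GENCODE M21, to which 49326 of 49671 gene IDs matched, and identity was computed on coding bases. DESeq2 1.42.0 and other scalings, filters and left-out libraries were tried as alternatives. The edgeR tests of strain, sex, sex within a strain and their interaction were checked on simulated data, as were the exact permutation test and the identity measure. The correlation shuffles and DESeq2 were not. Named genes were the 4 receptors, their 3 closest relatives, up to 2 V2r neighbours a side, the 3 genes and 3 V2r genes most like each, and examples of the lists. The 4 receptors and all lists were chosen with earlier results of these data known.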

Additional observations from a re-analysis of the deposited data

Results flagged for a closer look

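The counts, the shares and the ratio were examined in the 8 groups of 4 mice, which gave 72 sets of 4 values. In 6 of the 72, the highest or lowest mouse lay farther from the other 3 than Dixon's limit for 4 values (0.829). Chance gives about 1 in 20 for separate sets, but these sets share mice and reads, so that rate is no direct measure here. The normalized count of Vmn2r115 in SWR female replicate 4 was 1674, while the other SWR females were between 1379 and 1423. The ratio of Vmn2r115 to Vmn2r116 was 0.886 in B6 male replicate 4 against 0.949 to 0.951 in the other B6 males, and 1.25 in SWR female replicate 3 against 1.37 to 1.38. Vmn2r53 took 0.495% of V2r reads in B6 male replicate 4 against 0.644% to 0.670%. Vmn2r115 took 0.522% in B6 female replicate 4 against 0.707% to 0.733%, and 1.14% in SJL male replicate 3 against 1.05% to 1.06%. B6 male replicate 4 also had a raised Cnga2 (36.2), and its part in the values was not tested.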

How the results depend on the processing

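The number of DE calls among the 24 receptor and strain pair combinations was 1 in the main test and also with DESeq2, DESeq2 size factors, V2r-sum scaling and the replicate block. It was 17 with the FDR alone, 2 when libraries were scaled to the vomeronasal neuron markers (Vmn2r116 in B6 against 129, LFC 1.01), 2 with no filter on low counts (Vmn2r115 in SWR against B6, LFC 1.03), 0 when tested against FC 2 itself with glmTreat, and 1 to 2 when single libraries were left out. Under V2r-sum scaling the call was Vmn2r115 in B6 against 129 (LFC -1.04) and Vmn2r116 in SWR against 129 fell under the limit (LFC 0.72). That scaling moved the median LFC of all genes by -0.33 for B6 against 129 and -0.36 for SWR against 129, and marker scaling moved it by 0.30 for B6 against 129 and -0.28 for SWR against B6. The replicate numbers did not pair the mice (mean correlation of deviations -0.003 between same-numbered libraries of different groups, 9 of 32 libraries closest to their own number), and the replicate block changed no call (1 of 24). The interaction of sex and strain gave 1 call with no filter (Vmn2r115) and 0 otherwise. Per kilobase of coding sequence, Vmn2r53, Vmn2r88, Vmn2r115 and Vmn2r116 had 232, 2330, 448 and 327 normalized counts.

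Directions that turned were of values not past the limits in that setting. Under marker scaling they were those of Vmn2r88 for B6 against 129 (0.055), SJL against B6 (-0.13) and SWR against B6 (-0.21), and of sex for Vmn2r53 in 129 (0.027), Vmn2r88 in SWR (-0.088) and Vmn2r116 in SWR (-0.11). Under V2r-sum scaling they were Vmn2r53 in B6 against 129 (-0.042), Vmn2r115 in SWR against 129 (-0.040) and Vmn2r116 in SJL against B6 (0.084), and of sex for Vmn2r88 (0.00054), Vmn2r116 (0.020) and Vmn2r53 (0.024) over all strains, Vmn2r116 (0.068) and Vmn2r53 (0.18) in 129, and Vmn2r116 in SWR (-0.010). Without the 4 libraries that stood apart, chosen after the data were seen, they were sex for Vmn2r88 (0.0011), Vmn2r116 (0.0077) and Vmn2r53 in 129 (0.016), and the Vmn2r53 share in B6 against 129 (0.032 percentage points). With no filter it was sex for Vmn2r88 in B6 (0.016). Correlations turned for Vmn2r53 and Vmn2r116 without 129 mice (0.063, also chosen after the data were seen), and on the share scale for Vmn2r88 with Vmn2r115 (-0.22) and Vmn2r116 (-0.026).

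When single libraries were left out, the LFC of Vmn2r88 in SWR against SJL ran from -0.074 to 0.017. The sex LFC over all strains ran from -0.060 to 0.00096 for Vmn2r88, -0.028 to 0.011 for Vmn2r116 and -0.057 to 0.018 for Vmn2r53. In B6 it ran from -0.079 to 0.014 for Vmn2r88, -0.036 to 0.079 for Vmn2r116 and -0.0091 to 0.33 for Vmn2r53, in 129 from -0.17 to 0.042 for Vmn2r53, and in SWR from -0.039 to 0.096 for Vmn2r88 and -0.057 to 0.10 for Vmn2r116. The Vmn2r53 share in B6 against 129 ran from -0.040 to 0.011 percentage points. Without 1 replicate number of every group, 2 to 3 of 6 correlations passed. Those of Vmn2r53 ran from -0.21 to 0.43 with Vmn2r88, -0.38 to 0.46 with Vmn2r115 and -0.20 to 0.14 with Vmn2r116. The correlation of Vmn2r88 ran from 0.60 to 0.88 with Vmn2r115 (adjusted p = 0.0996 at most, without replicate 2) and from 0.60 to 0.84 with Vmn2r116 (adjusted p = 0.0955 at most, without replicate 3), so each missed the limit in 1 of 4 settings. The cause of these changes was not tested. All 6 differences of the Vmn2r115 to Vmn2r116 ratio passed under every alternative run.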
